A study of Homo sapiens with 60 samples.

Results

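ALDH1A1, ALDH1A2, ALDH1A3, ALDH1B1, ALDH2, ALDH3A1, ALDH3A2, ALDH3B1 and ALDH7A1 are aldehyde dehydrogenase genes linked to drug tolerance in cancer cells. They were listed by name and make up 9 of the 19712 genes in the deposited tables. The study sequenced messenger RNA from 60 cultures of 4 human non-small cell lung cancer lines that carry mutant EGFR (PC9, HCC827, NCI-H1975, here H1975, and HCC2935), with 3 biological replicates in each of 5 arms per line. Parental cells kept without drug for 21 days received vehicle for 24 hours (DMSO) or the EGFR inhibitor osimertinib at 500 nM for 24 hours (acute). Drug tolerant persister cells (DTP) were the cells left after 21 days in 500 nM osimertinib. Some DTP cultures were then washed and kept in drug-free medium for 24 hours (short washout) or until growth resumed (long washout), which took 7 days in PC9, 3 days in H1975, 4 days in HCC827 and 10 days in HCC2935. The length of the long washout therefore differed between lines, and the line and this time cannot be told apart. Depth ranged from 17.72 to 49.13 M (mega) counts per library. It was 34.68 to 47.11 M in PC9 and 38.71 to 49.13 M in H1975. In HCC827 it was 17.72 to 25.07 M and in HCC2935 18.64 to 25.58 M. Depth overlapped between PC9 and H1975 and between HCC827 and HCC2935. Between a line of the first pair and a line of the second, line and depth cannot be told apart.

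Aldehyde dehydrogenases oxidise reactive aldehydes to carboxylic acids, using NAD or NADP as the acceptor. The ALDH1A enzymes turn retinaldehyde into retinoic acid, the ligand of the retinoic acid receptors, while the ALDH2 and ALDH3 enzymes clear acetaldehyde, fatty aldehydes and the aldehydes that form when lipids are oxidised. High aldehyde dehydrogenase activity is widely used to sort stem-like tumour cells, including those of lung adenocarcinoma, and has been linked to survival under chemotherapy and kinase inhibitors.

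Several libraries did not stand with their own arm. By distance over all genes, the nearest group was the library's own arm for 14 of 15 libraries in PC9, 13 of 15 in HCC2935, 8 of 15 in H1975 and 6 of 15 in HCC827. In HCC827 all 9 DTP and washout libraries were nearer to another of these 3 arms than to their own. Each library was left out of its own arm's mean, which thus rested on fewer libraries than the means of the other arms. This makes the distance to the own arm somewhat larger, so these counts understate how often a library stood with its arm. Some gaps were small, as for H1975 long washout replicate 2, at 0.478 from its own arm and 0.463 from DTP. PC9 long washout replicate 3 lay nearer to the PC9 short washout (0.532) than to its own arm (0.716), and member calls in the PC9 long washout are given with and without it. No library was a copy of another. The closest pair, HCC827 DTP replicate 3 and HCC827 short washout replicate 3, differed by a mean chi-square of 7.96 per gene, close to the closest pair within one arm at 8.97. As a check of the cells, the summed level of the 6 lung epithelial markers in the table was 1640 to 13600 TPM, transcript counts scaled for length and library size, across libraries, led by the keratins KRT8, KRT18 and KRT19. Immune cell markers summed to 10.1 to 179 TPM, of which CD68 was the most abundant, and the T cell gene CD3E stayed under 1 TPM in all 60 libraries. Fibroblast markers summed to 5.26 to 207 TPM with COL1A1 most abundant, and endothelial markers to 0.394 to 22.6 TPM.

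The first question was how the 9 genes differ between the untreated lines. In DMSO, ALDH1A3, which makes retinoic acid, was the most abundant member per length in PC9, HCC827 and HCC2935, while in H1975 ALDH7A1 and ALDH3B1 led. Its level was 830, 782 and 758 TPM in PC9, 130, 85.9 and 168 TPM in HCC827, 248, 307 and 201 TPM in HCC2935 and 9.26, 15.7 and 11.4 TPM in H1975. The 4 lines did not overlap, and ALDH1A3 passed the test in all 6 pairs of lines, from 6.30 log2 units between PC9 and H1975 (SE 0.30, adjusted p 1.04e-09) to -0.71 between HCC827 and HCC2935 (SE 0.24, adjusted p 0.0163). The last of these was lost without HCC827 DMSO replicate 2 (-0.50, adjusted p 0.055) or without HCC2935 DMSO replicate 2 (-0.53, adjusted p 0.0821). ALDH1A3 made up 72.4% of the summed TPM of the 9 genes in PC9, 42.2% in HCC2935, 37% in HCC827 and 4.06% in H1975. ALDH3A1, an enzyme for aromatic and fatty aldehydes, split the lines into a high and a low pair. It was at 70.6, 77 and 56 TPM in PC9 and 54.6, 49.2 and 54.6 TPM in HCC2935, but at 0.127 to 0.366 TPM in HCC827 and 0 to 0.0497 TPM in H1975. Between PC9 and HCC2935 it differed by 0.78 in counts (adjusted p 0.000629), a call lost on the log2 TPM scale (0.35, adjusted p 0.581).

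In PC9 DMSO the order of mean TPM was ALDH1A3, ALDH3A2, ALDH3A1, ALDH7A1, ALDH1B1, ALDH3B1, ALDH2, ALDH1A2 and ALDH1A1, and the replicates of ALDH3A1 and ALDH7A1, and of ALDH1B1 and ALDH3B1, overlapped. HCC827 ran in the order ALDH1A3, ALDH7A1, ALDH1B1, ALDH3B1, ALDH3A2, ALDH2, ALDH3A1, ALDH1A2 and ALDH1A1. There ALDH7A1 overlapped with ALDH1B1, ALDH1B1 with ALDH3B1, ALDH3A2 with ALDH2, and ALDH3A1 with ALDH1A2. For H1975 the order was ALDH7A1, ALDH3B1, ALDH3A2, ALDH1B1, ALDH1A3, ALDH2, ALDH1A2, ALDH3A1 and ALDH1A1, with overlap between the first 2, between ALDH1A3 and ALDH2, and between the last 2. HCC2935 had ALDH1A3, ALDH7A1, ALDH3A2, ALDH3B1, ALDH3A1, ALDH2, ALDH1B1, ALDH1A1 and ALDH1A2, and of these neighbours ALDH3B1 and ALDH3A1 overlapped.

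**Figure D1:**
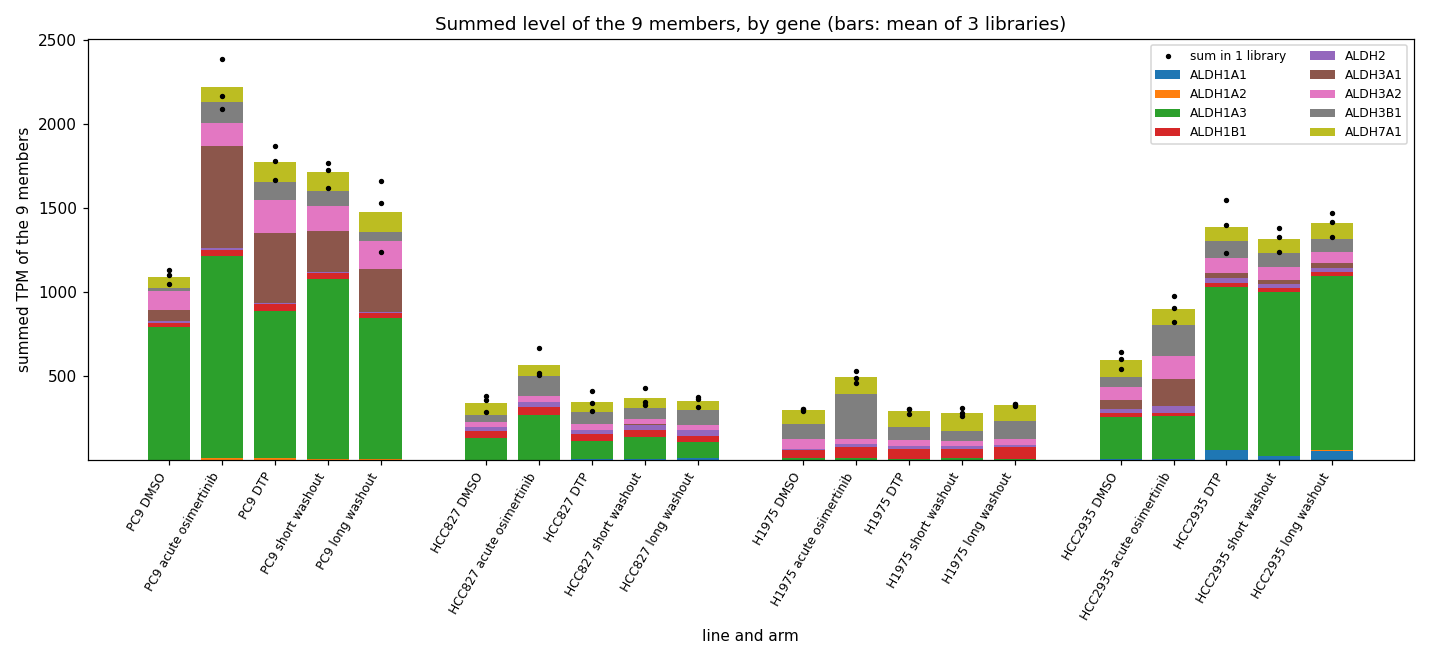
Mean TPM of the 9 aldehyde dehydrogenase genes stacked for each arm of each line, with the summed TPM of each library as a dot. Within each arm the mean sum is higher in PC9 and HCC2935 than in HCC827 and H1975. ALDH1A3 is the largest part of the bar in every arm of PC9, HCC827 and HCC2935.

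Across the 9 genes and 6 pairs of lines, 41 of 54 comparisons in DMSO passed an adjusted p of 0.05 by the quasi-likelihood test of edgeR with Benjamini-Hochberg adjustment. By pair this was 7 of 9 between PC9 and HCC827, against 64% of all genes tested, and 7 of 9 between PC9 and H1975, against 64.5%. It was 8 of 9 between PC9 and HCC2935 (69.1% of all genes), 6 of 9 between HCC827 and H1975 (57.3%), 6 of 9 between HCC827 and HCC2935 (66.4%) and 7 of 9 between H1975 and HCC2935 (67%). The fit is shared, so a member low in both lines of a pair could enter it through another line. Of the 6 calls between HCC827 and H1975, ALDH1A1 rests on 3.65 against 0 counts and ALDH3A1 on 17 against 3.06 counts over 3 libraries, which leaves both uncertain. Between PC9 and H1975 the ALDH1A1 call rests on 4.99 against 0 counts. Without the members under 20 counts over 3 libraries in both lines of a pair, called or not, 38 of 49 comparisons passed, with 7 of 8 between PC9 and HCC827, 6 of 8 between PC9 and H1975, 4 of 7 between HCC827 and H1975 and 6 of 8 between HCC827 and HCC2935. This cutoff was chosen after the results were seen. ALDH3A2, the fatty aldehyde dehydrogenase, passed in all 6 pairs and was highest in PC9 at 106, 114 and 113 TPM. ALDH2, the mitochondrial enzyme that clears acetaldehyde, also passed in all 6 pairs, from 24.4 to 30.2 TPM in HCC827 down to 9.28 to 10.2 TPM in H1975. On the deposited log2 TPM scale 2 of these ALDH2 pairs were lost, PC9 against H1975 (0.23, adjusted p 0.0863) and HCC827 against HCC2935 (0.11, adjusted p 0.409). ALDH7A1, which oxidises a lysine breakdown product and osmolyte aldehydes, passed in 0 of 6 pairs in the main edgeR fit. Its level was 61 to 66.6 TPM in PC9, 54.9 to 80.7 TPM in HCC827, 83.1 to 90.3 TPM in H1975 and 99.8 to 106 TPM in HCC2935. With RLE factors edgeR called PC9 against HCC2935 (-0.29, adjusted p 0.048) and HCC827 against HCC2935 (-0.29, adjusted p 0.046). The edgeR fit of all 60 libraries called HCC827 against HCC2935 (-0.26, adjusted p 0.0449). One pair had an unadjusted p under 0.05 in the main fit (HCC827 against HCC2935, 0.0458), DESeq2 called 2 pairs and limma on log2 TPM called 4. That scale moved the median of all genes by -0.13 to -0.40 in these pairs, so part of the ALDH7A1 difference on it is shared by the table. ALDH1A1 had 0 counts in all 3 H1975 DMSO libraries, so it was at least 102-fold higher in HCC2935 DMSO, at least 2.51-fold higher in HCC827 and at least 1.8-fold higher in PC9, against a floor of 3 counts over the group. Of these bounds, those of HCC827 and PC9 rest on 3.65 and 4.99 counts over 3 libraries, which leaves them uncertain. The ALDH1A1 calls of PC9 and of HCC827 against H1975 were both lost with limma on log2 TPM (1.84, adjusted p 0.0556, and 1.79, adjusted p 0.0678) and in a fit of all 60 libraries (3.66, adjusted p 0.131, and 4.11, adjusted p 0.115). Without PC9 DMSO replicate 1 the PC9 value was 2.92 (adjusted p 0.0971), without H1975 DMSO replicate 1, 2 or 3 it was 3.60, 3.62 and 3.62 (adjusted p 0.06, 0.0538 and 0.0562), and without HCC827 DMSO replicate 2 the HCC827 value was 2.87 (adjusted p 0.136).

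The low-level member ALDH1A2, a retinaldehyde dehydrogenase best known from development, also gave line differences that hung on single libraries. It was higher in PC9 than in HCC827 by 2.35 log2 units (adjusted p 0.0137), a call lost without PC9 DMSO replicate 3 (adjusted p 0.0515), HCC827 DMSO replicate 1 (0.0558) or HCC827 DMSO replicate 3 (0.0609). Against HCC2935 the difference was 1.74 (adjusted p 0.0369), and it was lost without any one of 5 libraries, PC9 DMSO replicates 2 and 3 and HCC2935 DMSO replicates 1, 2 and 3 (adjusted p 0.0615 to 0.129), with no filter on low counts (0.057), with DESeq2 (0.0914), with limma (0.086) and with the replicate number as a block (0.0545). HCC827 against H1975 did not pass (-1.58, adjusted p 0.0915), and was called with limma on log2 TPM (-1.55, adjusted p 0.0471) and without HCC827 DMSO replicate 2 (-2.51, adjusted p 0.0421). ALDH1B1, the mitochondrial relative of ALDH2, was higher in HCC827 and H1975 than in the other lines, with 32.5 to 56 TPM and 37.8 to 54.8 TPM against 21 to 24.9 TPM in PC9 and 21.8 to 23.2 TPM in HCC2935. Its difference between PC9 and HCC2935 was 0.45 in counts (adjusted p 0.0369) but 0.03 on the log2 TPM scale (adjusted p 0.883), and was lost with RLE factors (0.0526) and without PC9 DMSO replicate 1 or 2 or any one of HCC2935 DMSO replicates 1, 2 and 3 (adjusted p 0.0548 to 0.12). For ALDH3B1, which acts on medium and long chain aldehydes at membranes, levels were lowest in PC9 at 18.3 to 24.1 TPM and highest in H1975 at 66.4 to 94.5 TPM. ALDH7A1 passed between PC9 and HCC2935 when HCC827 DMSO replicate 2 was left out of the shared fit (-0.26, adjusted p 0.00665), and between HCC827 and HCC2935 without HCC827 DMSO replicate 1 (-0.37, adjusted p 0.0229) or 3 (-0.35, adjusted p 0.0392).

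The next question was what osimertinib did to the 9 genes within 24 hours. After acute treatment 17 member and line combinations were higher and 2 were lower, of 29 tested among the 36. Over all genes 4837 were higher and 4799 lower in PC9, and 2780 and 3037 in HCC827. These counts were 3128 and 3494 in H1975 and 3097 and 3526 in HCC2935. Only ALDH3B1 was higher in all 4 lines, in every alternative fit. In PC9 7 of the 8 members tested passed, all of them higher, against 68.5% of all genes. In HCC827 2 of 6 tested passed, ALDH1A3 and ALDH3B1, against 42.3% of all genes. H1975 had 4 of 7 (44.9% of all genes), with ALDH1B1, ALDH2 and ALDH3B1 higher and ALDH3A2 lower. HCC2935 had 6 of 8 (47.1%), with ALDH1A1, ALDH2, ALDH3A1, ALDH3A2 and ALDH3B1 higher and ALDH1B1 lower. The share of members that passed was above that of all genes in PC9, H1975 and HCC2935 and below it in HCC827, and with so few members these shares are given as a description. The median log2 change of the members tested was 0.62 in PC9, 0.19 in HCC827, 0.50 in H1975 and 0.76 in HCC2935, beside 0.03, 0.01, 0.03 and 0.01 over all genes. The summed TPM of the 9 genes went from 1130, 1100 and 1050 in PC9 DMSO to 2090, 2170 and 2390 in PC9 acute, and from 599, 644 and 541 to 904, 821 and 977 in HCC2935. In HCC827 it went from 356, 285 and 378 to 519, 506 and 669, and in H1975 from 292, 301 and 301 to 490, 532 and 458. No acute library overlapped with the DMSO libraries of its line in this sum, and since these are bulk cultures, a change in the mix of cells and a change in RNA per cell cannot be told apart.

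In DTP cells against DMSO, 14 combinations of 31 tested were higher and 5 lower, with no member called in the same direction in all 4 lines. Over all genes 5095 were higher and 5158 lower in PC9, and 2703 and 2401 in HCC827. These counts were 3288 and 3436 in H1975 and 3592 and 3863 in HCC2935. PC9 had 7 of 8 called (71.3% of all genes), 6 higher and ALDH2 lower. HCC827 had 2 of 7 (36.7%), ALDH1A1 and ALDH3B1, both higher. H1975 had 4 of 7 (45.7%), with ALDH1B1 and ALDH2 higher and ALDH1A3 and ALDH3A2 lower. HCC2935 had 6 of 9 (52.5%), with ALDH1A1, ALDH1A2, ALDH1A3 and ALDH3B1 higher and ALDH3A1 and ALDH7A1 lower. These shares lay above the share of all genes in PC9, H1975 and HCC2935 and under it in HCC827. They include ALDH1A1 in HCC827 and ALDH1A2 in HCC2935, which had 3.65 and 10.1 counts over the DMSO libraries and entered through DTP. Members' medians were 0.57, -0.00, -0.07 and 0.02 in PC9, HCC827, H1975 and HCC2935, beside 0.02, 0.02, 0.01 and -0.00 over all genes. Summed TPM in DTP was 1870, 1670 and 1780 in PC9 and 1550, 1230 and 1400 in HCC2935, above DMSO in every library, while HCC827 (409, 289 and 338) and H1975 (305, 301 and 274) overlapped with their DMSO libraries. On the log2 TPM scale the median of all genes moved by 0.27 in PC9 and 0.17 in HCC2935 relative to the count scale, and no call of a member in DTP against DMSO was gained or lost by it.

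Set directly against the acute arm, DTP cells had 13 combinations lower and 4 higher, of 31 tested. Over all genes 2978 were lower and 2782 higher in PC9, and 1945 and 2211 in HCC827. These counts were 2221 and 1673 in H1975 and 2929 and 3148 in HCC2935. PC9 had 6 of 8 called (39.8% of all genes), of which ALDH3A2 was higher and ALDH1A2, ALDH1A3, ALDH2, ALDH3A1 and ALDH3B1 lower. HCC827 had 3 of 7 (29.5%), ALDH1A1 higher and ALDH1A3 and ALDH3B1 lower. H1975 had 1 of 7 (26.2%), ALDH3B1, which was lower. HCC2935 had 7 of 9 (42.4%), with ALDH1A1 and ALDH1A3 higher and ALDH2, ALDH3A1, ALDH3A2, ALDH3B1 and ALDH7A1 lower. The members' share was above that of all genes in PC9, HCC827 and HCC2935 and below it in H1975. The HCC827 share includes ALDH1A1, which had 9.61 counts over the acute libraries and 194 in DTP. It entered that fit through the DTP libraries, which leaves this share uncertain. The acute and DTP comparisons share their DMSO libraries, and the direct comparison shares libraries with both, so their values are set side by side without a measure of likeness.

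Release from the drug was read against DTP. After 24 hours without drug 4 members passed in PC9 (of 8 tested, 22.2% of all genes), ALDH1A3 higher and ALDH3A1, ALDH3A2 and ALDH3B1 lower. No member passed by edgeR in HCC827 (0% of all genes), H1975 (0%) or HCC2935 (3.52%). At an unadjusted p under 0.05 there were 0, 1 and 2 members in these 3 lines, DESeq2 called 0, 1 and 1, and limma called 0 in each. After the long washout 1 member passed in PC9 (17.3% of all genes), ALDH3B1, which was lower. By edgeR 0 members passed in HCC827 (0% of all genes), H1975 (0.0136%) and HCC2935 (5.16%). Unadjusted p values under 0.05 were seen for 1, 1 and 4 members there, DESeq2 called 1, 0 and 1, and limma again 0. PC9 long washout replicate 3 bore on this comparison, since without it 5 members passed in place of 1. Against DMSO the long washout still had 11 combinations higher and 4 lower, of 31 tested. Over all genes 2219 were higher and 2059 lower in PC9, and 2730 and 2761 in HCC827. These counts were 3939 and 4148 in H1975 and 2977 and 2686 in HCC2935. PC9 had 5 of 8 (30.6% of all genes), HCC827 2 of 7 (39.7%), H1975 4 of 7 (55%) and HCC2935 4 of 9 (39.9%). The members' share was above that of all genes in PC9, near it in H1975 and HCC2935 and below it in HCC827. Here ALDH1A1 in HCC827 and ALDH1A2 in HCC2935 entered through the long washout libraries.

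**Figure D2:**
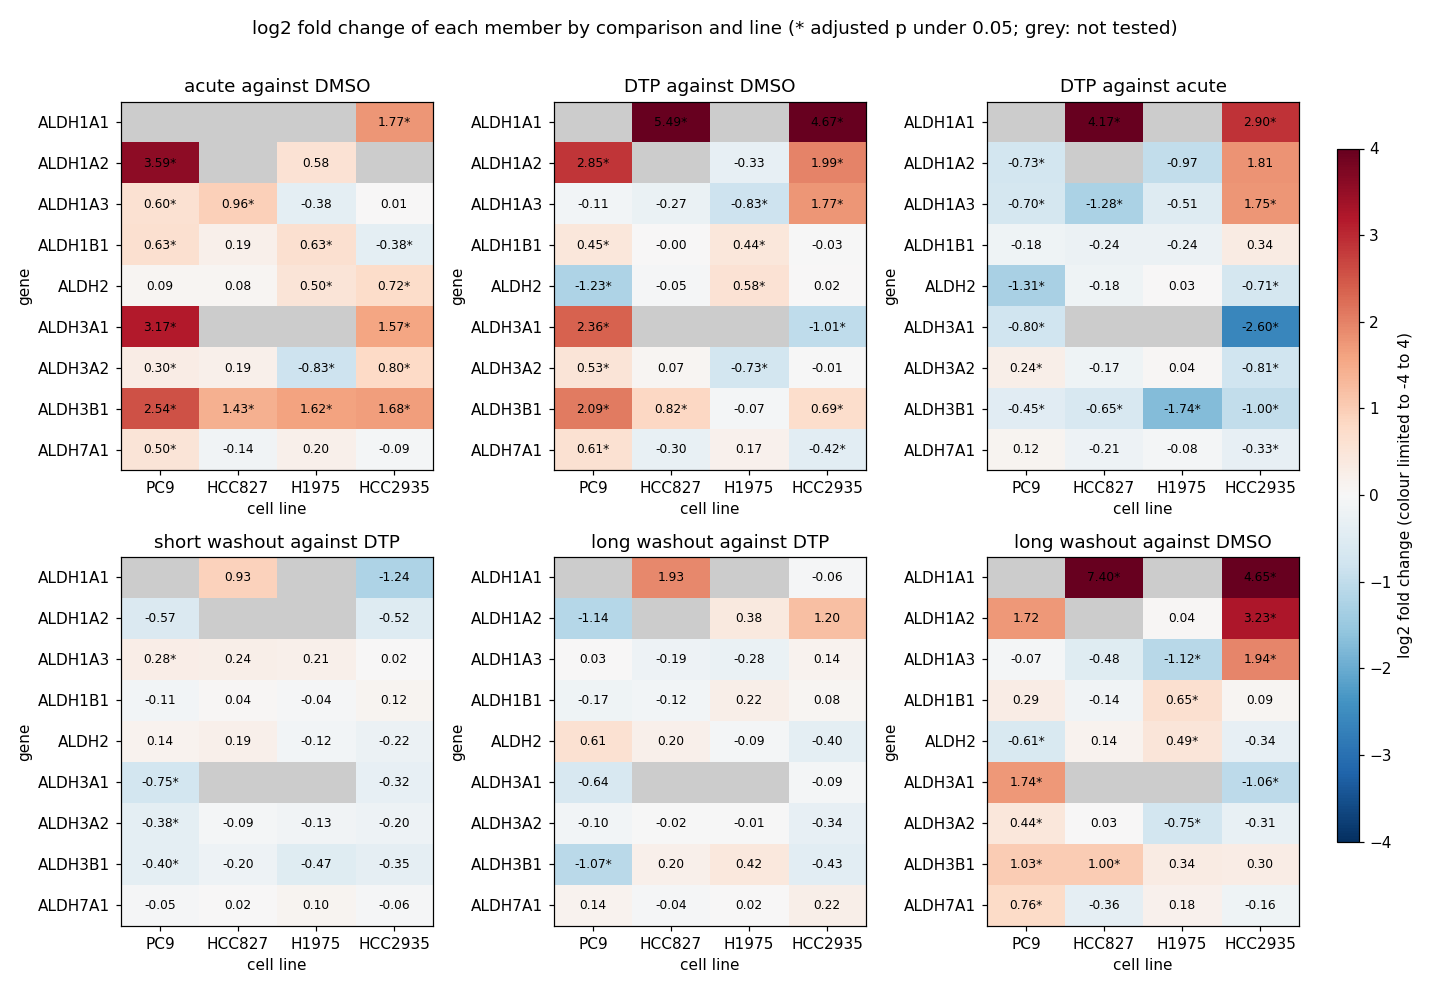
Log2 fold change of each member in each comparison and line, with a star where the adjusted p was under 0.05 and grey where the gene was too low to test. ALDH3B1 is marked higher after acute drug in the 4 lines, and ALDH1A1 in DTP is marked higher in HCC827 and HCC2935.

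The 3 retinaldehyde dehydrogenases come first. ALDH1A1, the best known marker enzyme of stem-like tumour cells, was near or at 0 in PC9 and H1975 in every arm, and rose in DTP cells of HCC827 and HCC2935. In HCC2935 it was at 2.52, 1.57 and 1.77 TPM in DMSO, 7.38, 6.78 and 5.99 TPM after acute drug and 31.3, 63.9 and 75.7 TPM in DTP. The 3 arms did not overlap. The acute change was 1.77 log2 units (SE 0.26, adjusted p 0.000467), and DTP was higher than DMSO by 4.67 (SE 0.35, adjusted p 1.42e-05) and higher than acute by 2.90 (SE 0.29, adjusted p 4.09e-05). Short washout replicates stood at 31.3, 19 and 21.3 TPM, with the highest of them level with the lowest DTP library. That difference of -1.24 missed the threshold (adjusted p 0.0536), and passed with DESeq2 (0.0379), with no filter on low counts (0.0357), in a fit of 15 libraries (0.032) and without HCC2935 DTP replicate 1 (-1.53, adjusted p 0.0118). In the long washout ALDH1A1 was at 50.8, 36 and 71.1 TPM, overlapping with DTP and higher than DMSO by 4.65 (SE 0.30, adjusted p 6.69e-06). In HCC827 the gene went from 3.65 counts over the 3 DMSO libraries (0, 0.0995 and 0.0278 TPM) and 9.61 counts in acute to 194 counts in DTP (1.47, 2.64 and 2.89 TPM). DTP was higher than DMSO by 5.49 log2 units (SE 0.76, adjusted p 0.000931) and higher than acute by 4.17 (SE 0.51, adjusted p 0.00141). With so few DMSO and acute counts the gene entered both fits through the DTP libraries. The size of these folds is uncertain, as is that of the long washout over DMSO. The HCC827 long washout held 12.2, 9.77 and 5.18 TPM, above every DTP library, and was higher than DMSO by 7.40 (SE 0.64, adjusted p 4.81e-05). Against DTP its difference of 1.93 (SE 0.40) did not pass by edgeR (adjusted p 1), while DESeq2 called it (0.00471). In H1975 14 of 15 libraries had no count and the remaining one 0.861. In PC9 the highest library was acute replicate 1 at 0.267 TPM (14.2 counts), and the acute to DTP ratio of summed counts was 18.2 with a 95% counting interval of 2.38 to 642, which rests on that library.

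ALDH1A2 was highest in the acute and DTP libraries of PC9. In the long washout PC9 and HCC2935 overlapped, with means of 4.19 and 4.45 TPM, and in DMSO PC9 overlapped with H1975. In PC9 its level was 0.637, 1.07 and 1.59 TPM in DMSO and 8.64, 10.4 and 9.86 TPM in DTP. After acute drug it was 11.2 and 10.8 TPM in replicates 1 and 3, with replicate 2 the highest (mean 13.3, SD 3.88). Every drug library stood well above every DMSO library, with a rise of 3.59 log2 units in acute (SE 0.37, adjusted p 2.82e-05) and 2.85 in DTP (SE 0.34, adjusted p 3.70e-05). DTP was lower than acute by -0.73 (adjusted p 0.0383), a call that was lost without PC9 acute replicate 2 (-0.42, adjusted p 0.118), without PC9 DTP replicate 1, 2 or 3 (adjusted p 0.11, 0.0685 and 0.0885), with limma (0.0918) and in a fit of 15 libraries (0.142). After the short washout it was at 7.08, 6.12 and 6.33 TPM, below DTP in each replicate, with -0.57 (adjusted p 0.0544) by edgeR and calls by DESeq2 (0.0478) and limma (0.0128). In the long washout replicates 1 and 2 were at 2.96 and 1.94 TPM and replicate 3 at 7.67 TPM. The difference from DTP was -1.14 (adjusted p 0.0997) with all libraries, called by DESeq2 (0.0388) and in a fit of 15 libraries (0.0298), and -1.84 (adjusted p 0.00151) without PC9 long washout replicate 3. Against DMSO it was 1.72 (adjusted p 0.0534), called by DESeq2 (0.0228), limma (0.0394) and a fit of 15 libraries (0.00584), and 2.03 (adjusted p 0.0232) without PC9 long washout replicate 2 but 1.01 (adjusted p 0.172) without replicate 3. In HCC2935 ALDH1A2 rose from 0.451, 0.298 and 0.565 TPM, or 10.1 counts over 3 libraries, to 1.69, 2.02 and 2.14 TPM or 42.2 counts in DTP (1.99, SE 0.53, adjusted p 0.0119) and to 4.76, 1.88 and 6.73 TPM or 98.1 counts in the long washout (3.23, SE 0.64, adjusted p 0.0035). The gene passed the filter there through the higher arms, so the size of these folds is uncertain. DTP against acute was 1.81 (adjusted p 0.0868). It was called without HCC2935 acute replicate 3 (adjusted p 0.0341), where the other acute libraries hold 2.5 and 0 counts, too few for a fold. HCC827 held 0 to 1.4 TPM, too low to test in every comparison within the line. Its acute libraries, at 1.4, 1.27 and 0.529 TPM, did not overlap with DMSO at 0.183, 0.454 and 0.119 TPM, and rest on 25.4 and 6.44 counts over 3 libraries. Without HCC827 DMSO replicate 2 ALDH1A2 was tested and called higher in the acute arm (adjusted p 0.0417). The other DMSO libraries held 1.44 and 1.11 counts, too few for a fold. Without HCC827 DTP replicate 3 it was called lower in DTP than in acute (adjusted p 0.0447), where the other DTP libraries held 0.4 and 0 counts. H1975 held 0.216 to 1.65 TPM, with no call in the 5 comparisons tested.

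ALDH1A3, the most abundant retinaldehyde dehydrogenase of these lines, moved in opposite directions in 2 of the lines. HCC2935 DTP libraries stood at 1140, 792 and 979 TPM, against 248, 307 and 201 TPM in DMSO and 241, 263 and 263 TPM after acute drug. DTP did not overlap with either arm, and was higher than DMSO by 1.77 (SE 0.18, adjusted p 6.99e-05) and than acute by 1.75 (SE 0.14, adjusted p 9.38e-06). The level was kept in the washouts, at 899 to 1030 TPM after the short and 961 to 1110 TPM after the long one, and the long washout was higher than DMSO by 1.94 (SE 0.17, adjusted p 2.97e-05). In H1975 ALDH1A3 fell from 9.26, 15.7 and 11.4 TPM to 7.68, 7.21 and 5.22 TPM in DTP (-0.83, SE 0.20, adjusted p 0.00923) and to 5.86, 5.35 and 5.25 TPM in the long washout (-1.12, SE 0.18, adjusted p 0.00108). In PC9 and HCC827 it rose over DMSO after acute drug, and did not pass against DMSO in DTP or the long washout. PC9 went to 1100, 1200 and 1290 TPM (0.60, SE 0.07, adjusted p 5.73e-05) and HCC827 to 238, 217 and 333 TPM (0.96, SE 0.24, adjusted p 0.0105), each above all 3 DMSO libraries. DTP libraries overlapped with the DMSO libraries in both, at 976, 776 and 890 TPM in PC9 and 138, 67.7 and 119 TPM in HCC827, and lower than acute by -0.70 (adjusted p 0.000705) and -1.28 (adjusted p 0.00856). In PC9 DTP against DMSO was -0.11 in counts (adjusted p 0.252) and 0.15 on the log2 TPM scale (adjusted p 0.12), where the median of all genes was 0.27 higher. Without PC9 DTP replicate 1 it was called in counts (-0.21, adjusted p 0.0234), while the other DTP libraries at 776 and 890 TPM were not both under the DMSO libraries at 830, 782 and 758 TPM, so the direction depends on the scale. In HCC827 the long washout was lower than DMSO without HCC827 DMSO replicate 2 (-0.69, adjusted p 0.0324). The rise in the PC9 short washout over DTP was 0.28 (adjusted p 0.0362), and was lost without PC9 DTP replicate 2 or 3 or any one of PC9 short washout replicates 1, 2 and 3 (adjusted p 0.0529 to 0.103) and in a fit of 15 libraries (0.062). These short washout libraries, at 1110, 1050 and 1040 TPM, also stood above all PC9 DMSO libraries, a difference that was not tested.

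ALDH1A1, ALDH1A2 (on the low counts given) and ALDH1A3 were called higher in HCC2935 DTP cells than in DMSO, and for this reason their promoter windows are shown. Each is 300 bases around a RefSeq start site (GRCh38.p14), most of it before the start, 5′ to 3′ on the gene's own strand. They lie at chr9:72953004-72953303 on the minus strand (ALDH1A1), chr15:58065662-58065961 on the minus strand (ALDH1A2, the one of its 2 entries with the higher GC content) and chr15:100879581-100879880 on the plus strand (ALDH1A3). Capitals mark matches on either strand to CCAAT, the CCAAT box, or GCGTG, the core of the element bound by the aryl hydrocarbon receptor (AHR).
ALDH1A1: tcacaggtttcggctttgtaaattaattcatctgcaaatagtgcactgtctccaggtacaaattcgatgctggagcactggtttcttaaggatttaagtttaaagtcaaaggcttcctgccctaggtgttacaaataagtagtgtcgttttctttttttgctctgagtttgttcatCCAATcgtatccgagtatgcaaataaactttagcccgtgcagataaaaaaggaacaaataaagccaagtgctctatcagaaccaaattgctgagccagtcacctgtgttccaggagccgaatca
ALDH1A2: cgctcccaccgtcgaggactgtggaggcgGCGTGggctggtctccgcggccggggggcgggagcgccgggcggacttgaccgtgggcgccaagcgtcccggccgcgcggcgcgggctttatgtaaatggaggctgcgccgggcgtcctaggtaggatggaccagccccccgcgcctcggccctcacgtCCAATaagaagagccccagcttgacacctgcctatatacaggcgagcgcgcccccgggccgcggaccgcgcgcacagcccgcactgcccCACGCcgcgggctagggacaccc
ALDH1A3: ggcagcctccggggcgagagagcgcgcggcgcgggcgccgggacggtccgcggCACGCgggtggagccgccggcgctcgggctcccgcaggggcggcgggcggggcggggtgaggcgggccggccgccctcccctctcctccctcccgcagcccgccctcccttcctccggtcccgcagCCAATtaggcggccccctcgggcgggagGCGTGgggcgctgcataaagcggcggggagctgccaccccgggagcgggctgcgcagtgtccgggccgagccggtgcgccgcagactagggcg
The ALDH1A1 window held 1 CCAAT and no GCGTG, and its GC content was 40.3%. Those of ALDH1A2 and ALDH1A3 held 1 CCAAT and 2 GCGTG each, with a GC content of 74% and 81.7%. The other ALDH1A2 window, at chr15:58013974-58014273 with a GC content of 42.7%, held neither. Of 35116 promoter windows, 34.6% held CCAAT and 36.5% held GCGTG on either strand, so these letters are common. None of the 10 windows of the 7 members with an entry held TGACNNNGC (13.3% of all windows), TATAAA (11.5%), AGGTCA (13.8%) or TGANTCA (7.71%), which are cores of the antioxidant response element, the TATA box, the repeated unit of the retinoic acid response element and the AP-1 site. This says only that the letters are not in these windows. No entry was given for ALDH2 and ALDH3A1.

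ALDH1B1 and ALDH2 act in the mitochondrion. ALDH2 fell in PC9 DTP cells, where it was at 5.96, 5.11 and 6.6 TPM against 12.1, 11.6 and 10.7 TPM in DMSO and 11.7, 11.8 and 13.1 TPM after acute drug. DTP lay below both arms with no overlap, by -1.23 against DMSO (SE 0.12, adjusted p 1.24e-05) and -1.31 against acute (SE 0.12, adjusted p 0.000107). Its long washout libraries were at 9.1, 9.05 and 6.86 TPM, above DTP and below DMSO. They differed from DTP by 0.61 (adjusted p 0.0602), which DESeq2 (0.0254) and a fit of 15 libraries (0.00916) called, and by 0.78 (adjusted p 0.00386) without PC9 long washout replicate 3. The fall against DMSO of -0.61 (adjusted p 0.0314) was lost without any one of PC9 DMSO replicates 1, 2 and 3 or PC9 long washout replicate 1 (adjusted p 0.0652 to 0.102), and with limma on log2 TPM (0.0521), and was -0.45 (adjusted p 0.0281) without PC9 long washout replicate 3. H1975 went the other way. ALDH2 stood at 9.28, 10.2 and 9.9 TPM in DMSO there and at 16, 13.5 and 13.9 TPM in DTP, with no overlap (0.58, SE 0.13, adjusted p 0.0059), and the long washout was higher by 0.49 (adjusted p 0.00588). The acute rise in H1975 of 0.50 (adjusted p 0.016) was lost without H1975 DMSO replicate 1 (0.0528), without H1975 acute replicate 2 (0.0647) and with the replicate number as a block (0.0635). In HCC2935 ALDH2 rose after acute drug, from 25.6, 23.7 and 27.5 to 45.4, 38.1 and 43.5 TPM (0.72, SE 0.11, adjusted p 0.000461), and DTP at 33.3, 25 and 29.4 TPM was lower than acute by -0.71 (adjusted p 0.00187). Without HCC2935 long washout replicate 2, that arm was lower than DMSO (-0.47, adjusted p 0.0457). HCC827 held ALDH2 between 24.4 and 35.3 TPM in all 15 libraries, with no call in any of the 6 comparisons.

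ALDH1B1 rose in PC9 from 24.9, 22.9 and 21 TPM in DMSO to 31.7, 39.7 and 34.8 TPM after acute drug (0.63, SE 0.11, adjusted p 0.000784) and 40.4, 37.6 and 34.7 TPM in DTP (0.45, SE 0.09, adjusted p 0.00149). Neither drug arm overlapped with DMSO, and the drug arms overlapped with each other. In the long washout it was at 29.7, 24.3 and 40.4 TPM. That arm differed from DTP by -0.17 (adjusted p 0.428), and by -0.33 (adjusted p 0.0341) without PC9 long washout replicate 3. In H1975 ALDH1B1 was higher than DMSO (37.8, 54.8 and 39.5 TPM) after acute drug by 0.63 (adjusted p 0.0439), in DTP by 0.44 (adjusted p 0.0274) and in the long washout by 0.65 (adjusted p 0.00601). The acute call overlapped in TPM (80.6, 74.6 and 50.3) and was lost without H1975 DMSO replicate 1 (0.125) or 3 (0.135), without H1975 acute replicate 1 (0.12) or 2 (0.131) and with no filter on low counts (0.0526). The DTP call (56, 62.2 and 58.5 TPM) was lost without H1975 DMSO replicate 1 or 3 or any one of H1975 DTP replicates 1, 2 and 3 (adjusted p 0.0514 to 0.113). DTP was lower than acute when H1975 acute replicate 3 was left out (-0.44, adjusted p 0.0365). In HCC2935 the acute arm was lower, at 19, 16.8 and 15.9 TPM against 22.1, 23.2 and 21.8 TPM (-0.38, adjusted p 0.0233). This was lost without HCC2935 DMSO replicate 1 or 2 or HCC2935 acute replicate 2 or 3 (adjusted p 0.0617 to 0.0791). DTP differed from acute there by 0.34 (adjusted p 0.103), and was called on the log2 TPM scale (0.0268) and in a fit of 15 libraries (0.0455). In HCC827 no comparison passed with all libraries, and the acute arm was higher without HCC827 DMSO replicate 2 (0.45, adjusted p 0.00977), the library with the highest DMSO value (56 TPM against 36.4 and 32.5).

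**Figure D3:**
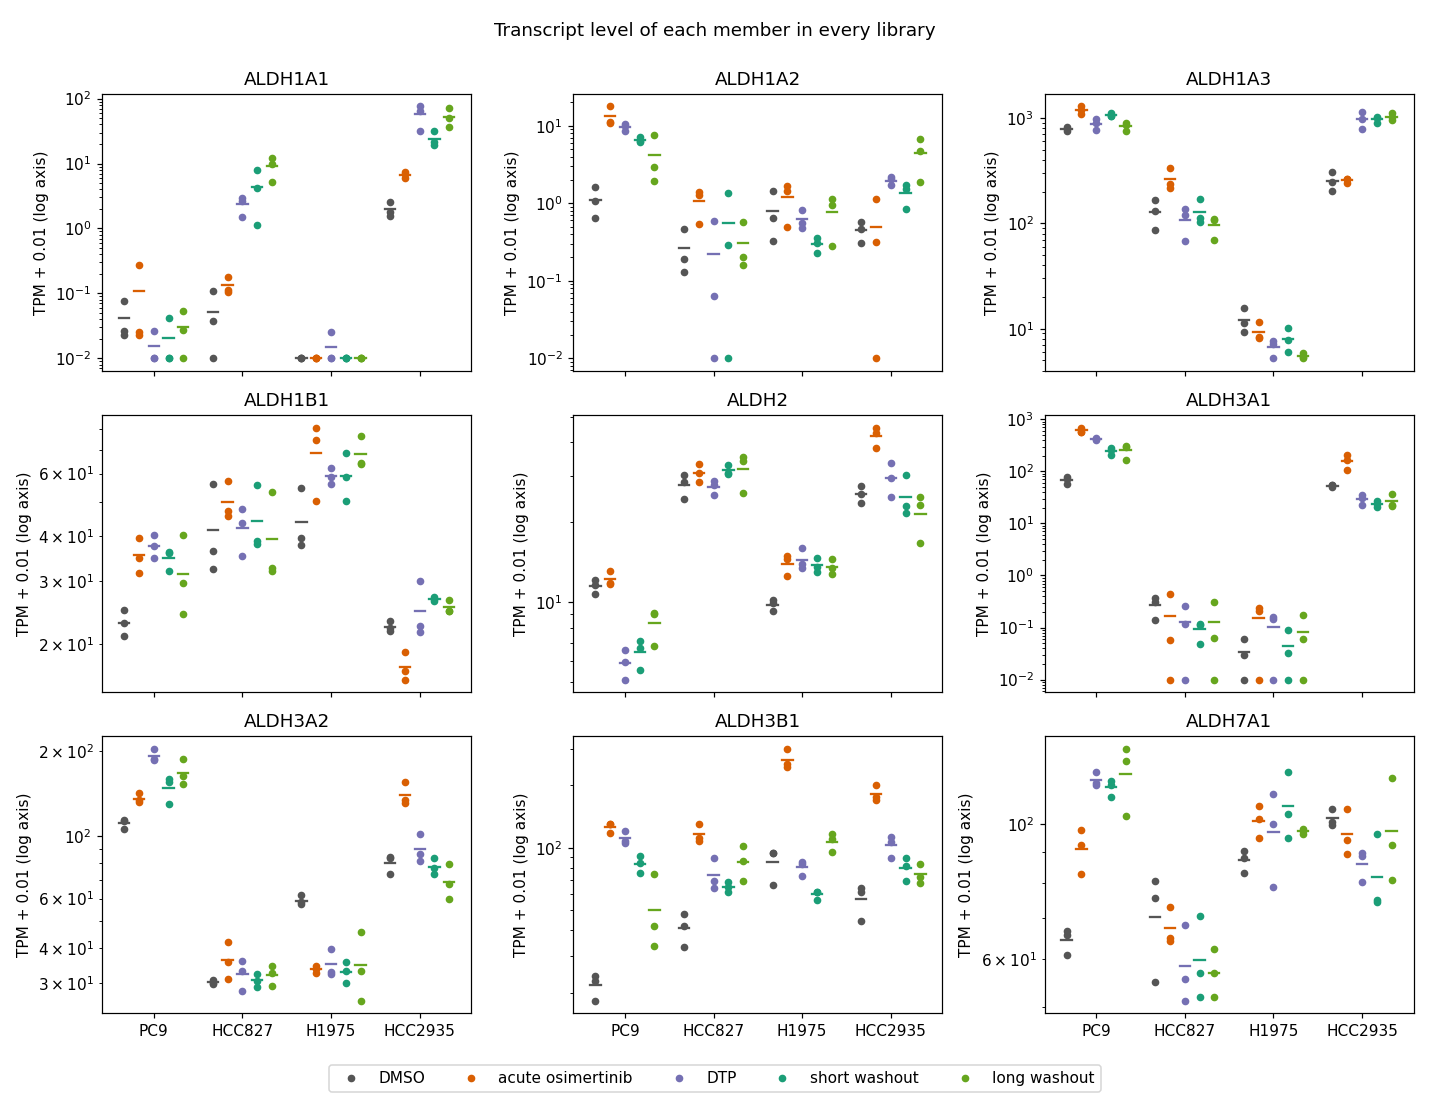
TPM of each of the 9 members in every library on a log scale, by line and arm, with a bar at the mean of the 3 replicates. ALDH1A3 is the highest member in PC9, ALDH1A1 is at or near the bottom of the scale in PC9 and H1975, and ALDH3B1 has its highest mean in the acute arm of all 4 lines.

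The ALDH3 genes code for enzymes of fatty and aromatic aldehydes. ALDH3B1 was the one member called higher after acute drug in all 4 lines. It stood at 22.8, 24.1 and 18.3 TPM in PC9 DMSO and at 118, 130 and 130 TPM after acute drug (2.54, SE 0.11, adjusted p 3.83e-07). In HCC827 it went from 48.2, 33.2 and 41.8 to 108, 111 and 130 TPM (1.43, SE 0.14, adjusted p 7.68e-05). In H1975 it went from 94, 66.4 and 94.5 to 252, 299 and 244 TPM (1.62, SE 0.17, adjusted p 0.000346), and in HCC2935 from 61.4, 64 and 44.2 to 201, 169 and 176 TPM (1.68, SE 0.15, adjusted p 2.66e-05). No acute library overlapped with DMSO in any line. In DTP the levels were lower than in acute in all 4 lines, at 105, 120 and 108 TPM in PC9, 89.3, 69 and 64.3 TPM in HCC827, 85.2, 72.9 and 83.2 TPM in H1975 and 112, 107 and 89.1 TPM in HCC2935. The differences from acute were -0.45 in PC9 (adjusted p 0.00184), -0.65 in HCC827 (0.006) and -1.74 in H1975 (0.000204), and ALDH3B1 was 2-fold lower in HCC2935 (SE 0.13 on the log2 scale, adjusted p 0.000167). The PC9 libraries overlapped in TPM, and the PC9 call was lost with limma on log2 TPM (-0.18, adjusted p 0.0566), the scale on which the median of all genes was 0.27 higher, and in a fit of 15 libraries (0.0666). Against DMSO, DTP remained higher in PC9 (2.09, adjusted p 1.43e-07), HCC827 (0.82, adjusted p 0.0049) and HCC2935 (0.69, adjusted p 0.00546), and not in H1975 (-0.07, adjusted p 0.772).

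After washout ALDH3B1 went down further in PC9. It was at 84.7, 75.2 and 91.6 TPM after the short washout, below every DTP library (-0.40, SE 0.07, adjusted p 0.0062), a call lost in a fit of 15 libraries (0.192). The long washout held 42, 33.8 and 74.6 TPM, the last being replicate 3, and was lower than DTP by -1.07 (SE 0.23, adjusted p 0.0302). That call was lost without any one of PC9 DTP replicates 1, 2 and 3 or PC9 long washout replicates 1 and 2 (adjusted p 0.065 to 0.121), and was -1.40 (adjusted p 7.82e-05) without PC9 long washout replicate 3. Against DMSO the long washout was higher by 1.03 (adjusted p 0.018), which was lost without PC9 DMSO replicate 1 (0.0613) or 3 (0.0816) and was 0.68 (adjusted p 0.0054) without PC9 long washout replicate 3. HCC827 was higher by 1.00 (adjusted p 0.00218). In H1975 the short washout held 56.2, 61.3 and 61.2 TPM, below all DTP libraries, yet at -0.47 did not pass by edgeR (adjusted p 0.193). It passed with DESeq2 (0.00898), with the replicate number as a block (0.0038) and without H1975 DTP replicate 2 (-0.55, adjusted p 0.0317). The H1975 long washout held 116, 94.9 and 110 TPM, above all DTP libraries. Its difference from DTP of 0.42 did not pass by edgeR (adjusted p 0.753). It differed from DMSO by 0.34 (adjusted p 0.109), and by 0.36 (adjusted p 0.0147) with the block. In HCC2935 the long washout differed from DTP by -0.43 (adjusted p 0.071), and passed with DESeq2 (0.0229) and without HCC2935 long washout replicate 1 (-0.48, adjusted p 0.0418).

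ALDH3A1, best known from cornea and from smoke-exposed airway, rose with osimertinib in PC9 and went both ways in HCC2935. In PC9 the level was 70.6, 77 and 56 TPM in DMSO, 582, 560 and 690 TPM after acute drug and 434, 404 and 424 TPM in DTP. The 3 arms did not overlap, with rises of 3.17 in acute (SE 0.12, adjusted p 2.35e-07) and 2.36 in DTP (SE 0.11, adjusted p 8.09e-08), and DTP lower than acute by -0.80 (adjusted p 0.000113). The short washout, at 257, 209 and 282 TPM, was lower than DTP by -0.75 (SE 0.09, adjusted p 0.00124). The long washout, at 292, 163 and 309 TPM, did not pass against DTP (-0.64, adjusted p 0.053), and passed with RLE factors (0.0493), DESeq2 (0.00764), the block (0.0434), a fit of 15 libraries (0.00789) and without PC9 long washout replicate 3 (-0.75, adjusted p 0.0115). It was higher than DMSO by 1.74 (adjusted p 0.00256), and by 1.62 (adjusted p 0.00077) without that replicate. In HCC2935 ALDH3A1 rose from 54.6, 49.2 and 54.6 to 164, 104 and 210 TPM after acute drug (1.57, SE 0.19, adjusted p 0.00014). In DTP it fell to 30.7, 23 and 34.7 TPM, under every DMSO library (-1.01, SE 0.15, adjusted p 0.00055) and by -2.60 against acute (adjusted p 1.71e-05). It stayed there in the washouts, at 20.3 to 26.5 and 21.4 to 36.1 TPM, and the long washout was lower than DMSO by -1.06 (adjusted p 0.00253). In HCC827 and H1975 the gene was too low to test in every within-line comparison, at 0 to 0.427 and 0 to 0.231 TPM.

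ALDH3A2, the fatty aldehyde dehydrogenase of the endoplasmic reticulum, rose in PC9, fell in H1975 and rose after acute drug in HCC2935. PC9 levels were 106, 114 and 113 TPM in DMSO, 142, 134 and 132 TPM in acute and 188, 204 and 187 TPM in DTP, 3 arms without overlap (0.30, adjusted p 0.00311, and 0.53, adjusted p 4.77e-05). DTP was above acute by 0.24 (adjusted p 0.0137), the reverse of the other PC9 members that passed. The short washout was lower than DTP at 156, 130 and 159 TPM (-0.38, adjusted p 0.00694). The long washout was higher than DMSO by 0.44 (adjusted p 0.0107), which was lost without PC9 DMSO replicate 1 (0.0535) or 3 (0.0515) and was 0.39 (adjusted p 0.00593) without PC9 long washout replicate 3. In H1975 ALDH3A2 fell from 58.2, 61.7 and 57.2 TPM to 33.8, 32.6 and 34.5 TPM in acute (-0.83, SE 0.08, adjusted p 0.000221) and 39.8, 32.4 and 33 TPM in DTP (-0.73, SE 0.11, adjusted p 0.000847). It had not come back in the long washout (-0.75, adjusted p 0.00465), where libraries ranged from 26 to 45.5 TPM. In HCC2935 the acute arm was at 131, 134 and 156 TPM against 84.1, 73.1 and 83.3 TPM in DMSO (0.80, SE 0.09, adjusted p 7.53e-05), and DTP at 81.6, 102 and 86.1 TPM was lower than acute by -0.81 (adjusted p 0.000212). The HCC2935 long washout was lower than DMSO without replicate 3 of that arm (-0.46, adjusted p 0.0161) and in a fit of 15 libraries (-0.31, adjusted p 0.0319), not with the 6 libraries alone (0.0797). HCC827 stayed between 28.1 and 42.1 TPM with no call.

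ALDH7A1, the remaining member, ranged from 51.2 to 133 TPM over the 60 libraries. In PC9 it rose from 61, 65.8 and 66.6 TPM to 97.8, 82.7 and 92.4 TPM in acute (0.50, SE 0.08, adjusted p 0.000333) and 116, 117 and 122 TPM in DTP (0.61, SE 0.07, adjusted p 2.48e-05). The 3 arms did not overlap, and the long washout held this level (0.76 over DMSO, adjusted p 0.00333, and 0.0012 without PC9 long washout replicate 3). DTP against acute was 0.12 (adjusted p 0.188) in counts and 0.38 (adjusted p 0.00281) on the log2 TPM scale, where the median of all genes was itself 0.27 higher. HCC2935 DTP cells were lower than DMSO, at 89.5, 88.6 and 80.3 TPM against 99.8, 101 and 106 TPM (-0.42, SE 0.09, adjusted p 0.00307). There DTP was also lower than acute (-0.33, adjusted p 0.0192), with overlap in TPM, a call lost without HCC2935 acute replicate 3 (0.0509), without HCC2935 DTP replicate 3 (0.0859) and with limma on log2 TPM (0.204). The HCC2935 long washout was lower than DMSO only without replicate 2 of that arm (-0.34, adjusted p 0.0327). H1975 had no call. HCC827 had none with all libraries, while without HCC827 DMSO replicate 2, the lowest DMSO library at 54.9 TPM, the acute (-0.29, adjusted p 0.0308), DTP (-0.46, adjusted p 0.0348) and long washout arms (-0.50, adjusted p 0.00936) were lower than DMSO, and without HCC827 DTP replicate 1 DTP was lower than acute (-0.31, adjusted p 0.0342). ALDH7A1 also has 4 named pseudogenes, so its counts are uncertain where reads could be split with them.

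The design lets the difference between lines be tested as a line by treatment term. For the acute effect 8 of 9 members passed, beside 40.5% of all genes, and for the DTP effect 8 of 9, beside 61.6%. These terms include lines in which a member was too low to test by itself. After acute drug that was so for ALDH1A1 in PC9, HCC827 and H1975, for ALDH3A1 in HCC827 and H1975 and for ALDH1A2 in HCC827 and HCC2935. In DTP it was so for ALDH1A1 in PC9 and H1975, ALDH3A1 in HCC827 and H1975 and ALDH1A2 in HCC827. A difference among all 4 lines is therefore not measured for these 3 members. ALDH3A2 differed in both (adjusted p 1.26e-08 and 1.35e-06). ALDH3B1, which rose in all 4 lines after acute drug, still differed in size (adjusted p 0.0032), with the highest value in PC9. The ALDH1A1 term for the acute effect (0.993) says little about a difference, since the gene could be tested by itself in HCC2935 alone. For the DTP effect ALDH1A1 passed at 0.00632 but not without PC9 DMSO replicate 1 (0.0935). ALDH1B1 missed the threshold for the DTP effect (0.14) and passed without HCC2935 DTP replicate 1 (0.0428). ALDH1A2 passed for the acute effect (0.0225) and lost this without PC9 DMSO replicate 1 (0.0594), without PC9 acute replicate 2 (0.064) and with limma (0.0515).

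Other members of the family and of linked pathways were read from lists. Counts are given in the order PC9, HCC827, H1975 and HCC2935, beside 68.5%, 42.3%, 44.9% and 47.1% of all genes called after acute drug and 71.3%, 36.7%, 45.7% and 52.5% in DTP against DMSO. Of 10 other ALDH genes, 10, 9, 10 and 8 were tested after acute drug, and 6, 4, 4 and 2 were higher and 1, 2, 1 and 1 lower. The called share was near that of all genes in PC9 and H1975, above it in HCC827 and below it in HCC2935. In DTP 6, 1, 5 and 2 of the 10, 9, 10 and 9 tested were higher and 2, 1, 2 and 6 lower, a share below that of all genes in HCC827 and above it in the other lines. ALDH6A1, which degrades methylmalonate semialdehyde, rose after acute drug in all 4 lines, by 0.69 in HCC2935 to 1.83 in PC9. It was lower in DTP than in acute in all 4, from -0.57 in H1975 to -1.18 in HCC2935, as was ALDH3B2, the closest relative of ALDH3B1 (-1.13, -2.02, -5.62 and -1.36). ALDH16A1 was lower in DTP than in DMSO in all 4 lines (-0.31, -0.53, -0.35 and -0.80). ALDH1L2, a mitochondrial folate enzyme, was higher in the long washout than in DMSO in PC9 (1.59), H1975 (1.92) and HCC2935 (2.50).

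Genes that supply or read retinoic acid numbered 18, of which 14, 11, 12 and 16 were tested in PC9, HCC827, H1975 and HCC2935 after acute drug and 14, 12, 12 and 16 in DTP. After acute drug 9 of them were higher and 4 lower in PC9, 5 and 2 in HCC827, 2 and 2 in H1975 and 6 and 3 in HCC2935. The called share was above that of all genes in PC9, HCC827 and HCC2935 and below it in H1975 (68.5%, 42.3%, 47.1% and 44.9%). In DTP the counts were 9 and 2, 4 and 3, 2 and 7, and 5 and 4, a share above that of all genes in each line, by little in PC9 and HCC2935 (71.3% and 52.5%, with 36.7% in HCC827 and 45.7% in H1975). DHRS3, a retinaldehyde reductase, rose after acute drug in all 4 lines (1.40, 1.07, 0.80 and 0.83), as did RXRB, a retinoid X receptor (1.28, 0.70, 0.81 and 0.99), while RDH11, a retinol dehydrogenase, fell (-0.67, -0.95, -0.89 and -0.42). CRABP2, which carries retinoic acid to its receptor, was lower in DTP than in acute in all 4 lines (-0.82, -1.01, -1.61 and -1.55). The list of retinoic acid responsive genes held 9 genes, 1 of them under 2 names, and 5 of the 9 (STRA6, DHRS3, CYP26A1, CYP26B1 and RARB) are also in the list of genes that supply or read retinoic acid, so the counts of these lists are not separate. The numbers tested in PC9, HCC827, H1975 and HCC2935 were 9, 7, 6 and 8 after acute drug and 9, 8, 6 and 8 in DTP. In DTP 7 were higher and 2 lower in PC9, 3 and 2 in HCC827, 0 and 3 in H1975 and 6 and 0 in HCC2935, with list medians of 1.20, 0.16, -1.15 and 1.44. CYP26B1, which breaks down retinoic acid and is induced by it, was higher in DTP than in DMSO in PC9 (1.80), HCC827 (4.40) and HCC2935 (2.88) and lower in H1975 (-2.34). TGM2 was lower in PC9, HCC827 and H1975 DTP (-3.49, -1.36 and -1.11) and higher in HCC2935 (0.53). After acute drug 6 of the 9 were higher and 2 lower in PC9, 3 and 1 in HCC827, 2 and 2 in H1975 and 4 and 0 in HCC2935, and PLAAT4 rose in all 4 lines (4.90, 2.26, 1.35 and 2.38).

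Of 14 other enzymes that clear aldehydes, 12, 12, 12 and 13 were tested after acute drug, with 8, 2, 6 and 6 higher and 3, 4, 2 and 1 lower, beside 68.5%, 42.3%, 44.9% and 47.1% of all genes called. The called share was near that of all genes in HCC827 and HCC2935 and above it in PC9 and H1975. In DTP 12, 11, 12 and 13 were tested, with 2, 3, 4 and 5 higher and 6, 4, 4 and 2 lower, beside 71.3%, 36.7%, 45.7% and 52.5%, a share near that of all genes in PC9 and HCC2935 and above it in HCC827 and H1975. AKR1C3 rose after acute drug in all 4 lines (0.88, 1.23, 1.89 and 2.17), and so did AKR1A1 (0.44, 0.56, 0.40 and 0.85), while AKR1B1 was higher in PC9 and H1975 (0.52 and 0.30) and lower in HCC827 and HCC2935 (-0.63 and -1.11). In DTP AKR1A1, AKR1C3, PTGR1 and GSTA4 were each higher in 3 lines, and AKR1B1, AKR7A2, CBR1 and CBR3 each lower in 3. Among 9 targets of NRF2, the regulator of the response to oxidants and aldehydes, 4 were higher and 4 lower in PC9 acute cells, 0 and 6 in HCC827, 2 and 3 in H1975 and 0 and 5 in HCC2935. GCLM fell after acute drug in all 4 lines (from -0.37 in PC9 to -1.43 in HCC827) and so did SRXN1 (-1.21, -0.43, -0.76 and -0.82). In DTP 6, 4, 5 and 3 of the 9 were lower and 2 higher in each line, and NQO1 (-0.34, -0.86, -0.77 and -1.14) and GCLM fell in all 4, while ME1 fell in 3 and rose in HCC2935 (0.43). Of AHR, a known regulator of ALDH3A1, and 5 linked genes, 4, 3, 4 and 3 were higher after acute drug, with ARNT, AHRR, CYP1A1 and CYP1B1 each higher in 3 lines. In HCC2935 1 of the 6, TIPARP, was lower (-0.97). The same 4 genes were each higher in 3 lines in DTP, where 5, 4, 5 and 2 of the 6 were higher and 0 lower. CYP1A1, the usual readout of AHR, was higher after acute drug in PC9 (3.87), HCC827 (1.13) and HCC2935 (3.37), and at 1.28 in H1975 (adjusted p 0.306). In DTP it was higher than DMSO in PC9 (4.56), HCC827 (2.46) and HCC2935 (2.63), and at -0.66 in H1975 (adjusted p 0.397). ALDH3A1 rose in both arms of PC9. In HCC2935 it rose after acute drug and fell in DTP (-1.01, adjusted p 0.00055), where CYP1A1 was higher. A link between AHR and the level of ALDH3A1 was not tested.

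Of 5 stem-like surface markers 4 were tested in each line after acute drug, with 2, 1, 2 and 1 higher and 1, 0, 0 and 1 lower, beside 68.5%, 42.3%, 44.9% and 47.1% of all genes called. In DTP 4, 4, 5 and 4 were tested, with 2, 1, 2 and 1 higher and 1, 1, 1 and 0 lower, beside 71.3%, 36.7%, 45.7% and 52.5%. After acute drug CD24 and ALCAM were each higher in 3 lines. CD24 was higher in DTP than in DMSO in PC9 (2.97), HCC827 (0.51) and H1975 (1.41), and was at 0.17 (adjusted p 0.39) in HCC2935. As a readout of the drug, 9, 8, 8 and 10 of 10 ERK target genes fell after acute treatment, with list medians of -3.27, -2.39, -2.78 and -3.93. DUSP4, DUSP5, DUSP6, SPRY4, ETV4, ETV5, PHLDA1 and FOSL1 fell in all 4 lines. In DTP 9, 5, 9 and 9 were lower and 0, 1, 1 and 0 higher, and DUSP4, DUSP5, ETV4, ETV5, PHLDA1 and FOSL1 passed in all 4 lines, with DUSP4 higher in HCC827 (1.38). All 10 proliferation genes fell in the acute arm and in DTP in each of the 4 lines, with medians of -1.65 to -2.40 in acute and -1.48 to -1.89 in DTP. After the long washout 10 of 10 were higher than in DTP in PC9 and 8 of 10 in HCC2935. In HCC827 and H1975 0 of 10 passed by edgeR, beside 0% and 0.0136% of all genes, the same comparison in which no ALDH member passed.

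In DTP against acute the lists stood as follows in PC9, HCC827, H1975 and HCC2935, where 39.8%, 29.5%, 26.2% and 42.4% of all genes were called. The other ALDH genes had 0, 0, 2 and 2 higher and 5, 2, 2 and 7 lower, the retinoid supply genes 2, 2, 1 and 3 higher and 8, 2, 4 and 4 lower, and the retinoic acid responsive genes 2, 2, 0 and 2 higher and 5, 2, 2 and 0 lower, with CYP26B1 higher in 3 lines. The other aldehyde clearing enzymes had 1, 0, 0 and 4 higher and 7, 1, 3 and 4 lower, and AKR1B10 passed in all 4 (-1.14, -1.39, -2.77 and 1.77). NRF2 targets had 2, 3, 1 and 4 higher and 4, 0, 3 and 1 lower, with SRXN1 higher in all 4 (0.81, 0.99, 0.54 and 0.87). AHR and linked genes had 1, 2, 1 and 1 higher and 0 lower. Stem-like markers had 2, 0, 1 and 2 higher and 1, 2, 2 and 1 lower, and ALCAM passed in all 4 (0.76, -0.65, -0.53 and -0.43). ERK targets had 3, 6, 2 and 6 higher and 0, 0, 1 and 0 lower, with ETV5 higher in 3 lines, and proliferation genes 3, 9, 0 and 2 higher and 1, 0, 0 and 0 lower, with RRM2 and TYMS higher in 3.

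In the washouts against DTP 0 genes of any list passed by edgeR in HCC827 and H1975, where 0% to 0.0136% of all genes did. In PC9 the share of all genes called was 22.2% after the short and 17.3% after the long washout, and in HCC2935 it was 3.52% and 5.16%. In PC9 the short washout had 1 higher and 1 lower among the other ALDH genes, 1 and 7 among the retinoid supply genes, 1 and 4 among the retinoic acid responsive genes, 2 and 2 among the other aldehyde clearing enzymes and 2 and 0 among the NRF2 targets. It had 0 and 1 among AHR and linked genes, 2 and 2 among stem-like markers, 6 and 0 among ERK targets and 5 and 0 among proliferation genes. The PC9 long washout had 1 and 1, 1 and 3, 1 and 4, 7 and 0, 6 and 0, 0 and 1, 1 and 0, 1 and 0, and 10 and 0 in the same order. In HCC2935 these counts were 0 and 0, 0 and 1, 0 and 2, 0 and 1, 0 and 0, 0 and 0, 1 and 0, 0 and 0, and 2 and 0 after the short washout, and 0 and 0, 4 and 0, 2 and 0, 0 and 1, 0 and 0, 0 and 1, 1 and 1, 1 and 0, and 8 and 0 after the long one. In the long washout against DMSO 30.6%, 39.7%, 55% and 39.9% of all genes were called in PC9, HCC827, H1975 and HCC2935. These lines had 5, 1, 7 and 1 of the other ALDH genes higher and 1, 1, 1 and 6 lower. For the retinoid supply genes it was 5, 6, 3 and 5 higher and 1, 2, 7 and 2 lower, and for the retinoic acid responsive genes 3, 5, 1 and 6 higher and 1, 1, 4 and 0 lower. The other aldehyde clearing enzymes had 4, 1, 4 and 4 higher and 0, 4, 4 and 2 lower, NRF2 targets 1, 2, 1 and 0 higher and 1, 4, 6 and 2 lower, and AHR and linked genes 3, 5, 5 and 0 higher and 0 lower. Stem-like markers had 1, 1, 2 and 1 higher and 1, 2, 1 and 1 lower. ERK targets had 0, 2, 1 and 0 higher and 6, 5, 7 and 8 lower, and 4, 10, 10 and 5 of the 10 proliferation genes were still lower. Called in all 4 lines were CYP26B1 (1.32, 3.89, -2.87 and 3.12), TGM2 (-1.57, -0.78, -1.13 and 1.84), PLAAT4 (4.43, 1.11, 0.96 and 1.39) and AKR1C3 (0.92, 0.95, 1.95 and 1.76), as well as DUSP4, DUSP6, FOSL1 and RRM2. NQO1 was lower in 3 lines, and AHRR, CYP1B1 and CD24 were each higher in 3.

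Among the cell type markers EPCAM was lower in DTP than in DMSO in all 4 lines (-1.18, -1.84, -3.27 and -0.59), than in acute, and in the long washout than in DMSO. Of the 6 lung epithelial markers, 3, 0, 0 and 0 were higher and 2, 6, 2 and 5 lower in DTP than in DMSO. These counts are in the order PC9, HCC827, H1975 and HCC2935, beside 71.3%, 36.7%, 45.7% and 52.5% of all genes called. Against acute 0, 0, 0 and 2 were higher and 4, 5, 4 and 2 lower, beside 39.8%, 29.5%, 26.2% and 42.4%. After acute drug KRT8 passed in all 4 lines (1.10, -0.96, 0.80 and -1.20), and NAPSA (2.31, 1.36, 1.69 and 0.73) and COL1A1 (0.89, 0.96, 1.95 and 0.48) were higher in all 4. Lung epithelial markers had 5, 2, 3 and 1 higher and 1, 2, 0 and 3 lower in this arm, beside 68.5%, 42.3%, 44.9% and 47.1% of all genes called. Of 1, 2, 4 and 3 fibroblast markers tested, 1, 1, 3 and 1 were higher and 0 lower. VWF was higher in 3 lines after acute drug and in 3 in the long washout, COL1A1 and PDGFRB in 3 in DTP, and CD68 was lower in DTP than in acute in 3. Of 3, 2, 4 and 4 endothelial markers tested after acute drug, 1, 1, 3 and 2 were higher and 1, 0, 0 and 0 lower. Fibroblast markers in DTP against DMSO had 3, 3, 3 and 1 of 4, 3, 5 and 3 tested higher and 0 lower. Immune cell markers in DTP against acute had 0 higher and 1, 0, 2 and 1 of 2, 2, 4 and 2 tested lower. Member changes and marker changes were seen in the same libraries, and cannot be told apart as changes per cell or of the mix of cells.

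Likeness over all 60 libraries was measured as Pearson's r of log2 CPM, library-scaled counts, after the mean of each line was taken out, and is given as a description over 16583 genes. ALDH3B1 had the closest partners, ABTB1 (0.919) and OS9 (0.913), with r from 0.86 to 0.98 inside each line. Other pairs held less evenly, with r in HCC827 of 0.12 and 0.1 for ALDH2 with LTA4H and USP3, 0.16 for ALDH3A1 with ATF6B and 0.2 for ALDH1A3 with COL4A6. For ALDH1A1 with RASD2 r was 0.26 in PC9 and in H1975, and with CHST10 it could not be computed there. For ALDH1A1 they were CHST10 (0.880) and RASD2 (0.870), for ALDH1A3 MEF2C (0.820) and COL4A6 (0.784), and for ALDH2 LTA4H (0.799) and USP3 (0.782). ALDH1B1 ran with TPM4 (0.767) and MIEF2 (0.764), ALDH3A2 with TSEN54 (0.717) and IL17RE (0.698), and ALDH1A2 with PCDH7 (0.701) and F8 (0.695). The lowest values were those of ALDH7A1 with TADA3 (0.683) and CKB (0.662), and of ALDH3A1 with ATF6B (0.641) and WDR5B (0.637). Between members r ran from -0.55 (ALDH1A1 and ALDH7A1) to 0.53 (ALDH1A2 and ALDH1A3). These 60 libraries share lines, arms and control libraries and are not independent points.

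The annotation bears on what the counts hold. In GENCODE release 29 (GRCh38), 6 of the 9 genes overlap a gene on the other strand and 5 a gene on their own strand, and strand use in the counting is not given in the sources used here. ALDH1A2 overlaps the genes AQP9 and LIPC on the other strand, and ALDH3A1, ALDH3B1 and ALDH1A1 each overlap 1 annotated gene there. Without strand, reads from sequence that such a pair shares cannot be told apart. The overlap is of whole gene spans, and whether exons of the members overlap was not tested.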

How the data were processed

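RNA from 60 cultures was sequenced as paired ends, in 20 groups of 3 biological replicates. The authors deposited estimated counts, fractional values that were rounded here (100.0% of nonzero values were not whole). The deposited log2 values are log2 of TPM plus 0.01 and were turned back into TPM, with totals of 0.8061 to 0.8906 M (mega) per library. The submitters' processing notes name HISAT2 2.1.0, Salmon 0.8.2 and hg38; the annotation is not given in the sources used here. Depth was 17.72 to 49.13 M counts.

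Each comparison was fitted on its own 6 libraries over all genes with edgeR 4.0.16 in R 4.3.3: TMM factors, filterByExpr, quasi-likelihood F test, Benjamini-Hochberg, adjusted p under 0.05. Line by treatment terms used 24 libraries and DMSO pairs 12. Alternatives were RLE factors, no filter, DESeq2 1.42.0, limma 3.58.1 trend on log2 TPM, the replicate number as a block, a fit of all libraries of a line (or all 60), adjusted p under 0.01, and each library left out. Equal replicate numbers correlated by over 0.1 in all 3 pairs in 1 of 30 comparisons, HCC827 short washout against DTP (0.41, 0.16 and 0.24), where the block called 0 members, as without it. H1975 short washout against DTP came next (0.10, 0.25 and 0.20). There the block called ALDH3B1 (edgeR adjusted p 0.0038), which the fit without it did not (0.193). Intervals and floors of 3 counts cover counting error only. The code was tested on simulated data. Likeness used edgeR log2 CPM with a prior count of 1. Tables were summarised in Python 3.11.15 (pandas 2.3.3, with numpy 2.4.6), intervals came from scipy 1.17.1, and plots were drawn with matplotlib 3.10.9. No column was left out.

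All 9 members were named in each comparison. Of each other list, marker lists included, the genes called in all 4 lines, or else in 3 lines in 1 direction, were named, with single genes for a list's extremes, and for each member the 2 genes of most like pattern. One list gene that this rule names is not reported here. The members and lists were chosen with earlier results of these data known.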

Additional observations from a re-analysis of the deposited data

Results flagged for a closer look

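The effect of acute osimertinib differed between lines for 8 members. The adjusted p was 0.0225 for ALDH1A2, 0.00765 for ALDH1A3, 0.0127 for ALDH1B1, 0.00159 for ALDH2, 0.000809 for ALDH3A1, 1.26e-08 for ALDH3A2, 0.0032 for ALDH3B1 and 0.00266 for ALDH7A1. Of these, ALDH3A1 was too low to test by itself in HCC827 and H1975 and ALDH1A2 in HCC827 and HCC2935, so their difference is not one among all 4 lines. The ALDH1A2 call was lost without PC9 DMSO replicate 1 (0.0594), without PC9 acute replicate 2 (0.064) and with limma (0.0515). The DTP effect also differed between lines for 8 members, with 0.00632 for ALDH1A1, 0.0102 for ALDH1A2, 1.71e-05 for ALDH1A3, 2.33e-07 for ALDH2, 7.20e-08 for ALDH3A1, 1.35e-06 for ALDH3A2, 3.80e-06 for ALDH3B1 and 9.06e-05 for ALDH7A1. ALDH1A1 was too low to test by itself in PC9 and H1975, and its call was lost without PC9 DMSO replicate 1 (0.0935). ALDH3A1 was too low in HCC827 and H1975, and ALDH1A2 in HCC827. Beside them stand 40.5% and 61.6% of all genes.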

How the results depend on the processing

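No member turned direction between calls in the settings run. Of the member values, 3793 kept their side of the threshold, 61 passed only in the other setting and 109 no longer passed, and 82 values called in neither setting changed sign. In the short washout against DTP DESeq2 called 7 members in place of 4. In the long washout against DTP, with 1 call, RLE factors gave 2, DESeq2 6, the replicate number as a block 2, a fit of 15 libraries 4 and an adjusted p under 0.01 gave 0. Leaving out 1 library gave 0 to 5 calls there, with 0 without PC9 DTP replicate 1 and 5 without PC9 long washout replicate 3. Elsewhere the leave-one-out ranges were 17 to 22 (acute), 18 to 20 (DTP against DMSO), 16 to 18 (DTP against acute), 3 to 5 (short washout), 12 to 17 (long washout against DMSO), 7 to 8 and 7 to 9 (differences of the acute and DTP effects between lines) and 38 to 41 (DMSO pairs). Of the lists, AKR1A1 in DTP against acute in PC9 was -0.02 and became 0.25 (adjusted p 0.0196) with limma on log2 TPM. PHLDA1 there was -0.05, -0.29 without PC9 acute osimertinib replicate 2 and 0.51 (adjusted p 0.00803) without PC9 acute osimertinib replicate 3. The cause of these differences was not tested. With 3 replicates a group small changes can be missed. Elsewhere the block gave counts of 18 (19 without) after acute drug, 19 (19) and 17 (17) for DTP against DMSO and acute, 5 (4) and 16 (15) for the short washout and for the long one against DMSO, 8 and 8 (8 and 8) for the differences between lines and 40 (41) for the DMSO pairs. Equal replicate numbers correlated by -0.31 to 0.41, with all 3 libraries of an arm best with their own number in 2 of 30 comparisons. Both were the short washout against DTP, in HCC827 and in H1975, so a pairing may have been left out of the main fit there. Messenger RNA was measured, and protein and enzyme activity were not analysed here.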
